A study of Mus musculus with 45 samples.

Results

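The neuronal pentraxins are 3 genes of the mouse, *Nptx1*, *Nptx2* and *Nptxr*, which are followed here in every sample of a study of *Shank3*-mutant mice. They are 3 of the 18135 genes with values. *Nptx2* was chosen by its own measured values, a rise in the striatum of homozygous mutant mice that was not seen in their cortex, and *Nptx1* and *Nptxr* were taken along as the other members of its family. The homozygous difference of *Nptx2* in striatum and cortex is therefore given as a description with no test.

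RNA was sequenced from 3 brain regions, the prefrontal cortex (here called the cortex), the hippocampus and the striatum, of male C57BL/6J mice aged 13 weeks. The 9 groups were wild-type (WT), heterozygous (Shank3-HT) and homozygous (Shank3-HM) mice in each region, with 5 samples per group and 45 in all. The mutant mice lack exons 14 to 16 of *Shank3*, the gene of a scaffold protein of excitatory synapses, on 1 or both chromosomes. The labels call the Shank3-HM mice knock-out, and they do not say which samples of different regions came from one mouse.

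Neuronal pentraxins are proteins of excitatory synapses that share a pentraxin domain at their carboxyl end with the pentraxins of blood plasma. Nptx1 and Nptx2 are secreted, and Nptxr is held in the membrane by an amino-terminal segment until it is cleaved. The 3 proteins join into mixed complexes that bind the outer part of AMPA receptors and gather these receptors at synapses, above all at excitatory inputs onto parvalbumin interneurons. *Nptx2*, also known as *Narp*, is an immediate-early gene whose transcript is raised by neuronal activity, and its protein collects in perineuronal nets.

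The genes lie on different chromosomes of the GRCm38 build and each has 5 exons in the transcript used here. *Nptx1* is at chr11:119538719-119547753 on the minus strand, *Nptx2* at chr5:144545902-144557478 on the plus strand, and *Nptxr* at chr15:79786351-79804766 on the minus strand. Their coding frames hold 432, 429 and 493 codons. The frame of *Nptxr* opens with a leucine codon, and those of *Nptx1* and *Nptx2* open with methionine. The stretch of coding sequence around the pentraxin family signature is shown from GENCODE transcripts, because it shows how far the members differ within their most shared part. Capitals mark the codons of the signature, which are codons 314 to 321 of *Nptx1*, 309 to 316 of *Nptx2* and 374 to 381 of *Nptxr*.

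Nptx1: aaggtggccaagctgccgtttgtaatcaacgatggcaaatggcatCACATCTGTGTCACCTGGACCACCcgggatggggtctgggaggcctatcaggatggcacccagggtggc

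Nptx2: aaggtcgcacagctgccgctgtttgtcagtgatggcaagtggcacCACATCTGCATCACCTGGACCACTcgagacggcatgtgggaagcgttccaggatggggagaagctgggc

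Nptxr: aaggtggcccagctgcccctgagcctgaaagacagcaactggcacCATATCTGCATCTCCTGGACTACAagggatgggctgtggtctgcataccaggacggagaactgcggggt

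Over these 114 bases, 82 were the same in *Nptx1* and *Nptx2*, 80 in *Nptx2* and *Nptxr*, and 77 in *Nptx1* and *Nptxr*. The translated frames were 57.6% identical between *Nptx1* and *Nptx2*, 54.5% between *Nptx2* and *Nptxr*, and 50.7% between *Nptx1* and *Nptxr*. In the last 200 residues, which take in the pentraxin domain, identity was 63.8% to 69.0%, and before them it was 38.7% to 47.2%. The 3 transcripts had 0 stretches of 31 bases in common. *Nptxr* overlaps *Npcd* on the same strand, and 862 of the 1450 such stretches of *Npcd* also occur in *Nptxr*. The values of *Npcd* were 0.0187% to 0.951% of those of *Nptxr* in the same sample, and a division of reads between these genes remains uncertain at that level.

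The values are normalized counts, whose sums were 26118607 to 29568983 per sample; these sums are not sequencing depth, which is unknown, so no counting error is given. *Shank3* was lower in all 5 Shank3-HM than in all 5 WT samples of each region, by a log2 difference of -0.98 in cortical, -1.06 in hippocampal and -1.11 in striatal samples (limma, adjusted p value = 4.76e-07, 1.19e-10 and 3.70e-07). All 5 Shank3-HT samples lay between the Shank3-HM and the WT samples in each region. The regions carried their markers. In WT mice *Slc17a7*, the vesicular glutamate transporter of cortical projection neurons, averaged 39096 ± 1306 normalized counts (SD, n = 5) in the cortex and 2833 ± 2815 in the striatum. *Drd1*, the dopamine receptor of direct-pathway striatal neurons, averaged 8618 ± 738 in the striatum and 169 ± 22.7 in the cortex, and *Prox1*, a dentate granule cell factor, averaged 3511 ± 474 in the hippocampus and 504 ± 62.7 in the striatum. Some samples stood apart. Shank3-HM replicate 2 of the cortex had a summed level of 75036 for 15 striatal markers, against 13117 to 15462 in the other 14 cortical samples, and was at 32595 for 9 cortical markers, against 53410 to 62380. In the striatum the same 9 cortical markers summed to 11247 in WT replicate 5, 8681 in Shank3-HT replicate 3 and 8704 in Shank3-HM replicate 1, and to 555 to 5023 in the other 12 samples. Both marker sets are the genes of the lists that differed at least 8-fold between WT cortex and WT striatum, a limit set after the values were seen. Shank3-HT replicate 5 of the striatum had a summed level of 70176 for 10 choroid plexus genes, against 469 to 1595 in the other striatal samples, and in the hippocampus this sum ran from 1388 to 125927.

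*Nptxr*, the membrane-held member, had the highest mean level per transcript length in every WT region, and *Nptx2* the lowest. In WT cortex the level per kilobase was 5775 ± 457 normalized counts for *Nptxr*, 1956 ± 44.97 for *Nptx1* and 412 ± 78.8 for *Nptx2* (SD, n = 5). In WT hippocampus it was 5654 ± 319, 3683 ± 204 and 166 ± 28.7, and in WT striatum 719 ± 149, 341 ± 229 and 228 ± 39.0 for the same genes in the same order. The mixture of the 3 transcripts differed by region. *Nptx2* made up 4.03% to 6.23% of the summed per-kilobase level in WT cortex and 1.51% to 2.08% in WT hippocampus. In WT striatum it made up 14.5% to 20.9%, above every sample of the other regions.

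Each member had its own order of regions in WT mice. *Nptx1* was highest in the hippocampus, *Nptx2* was highest in the cortex, and *Nptxr* was high in both and low in the striatum. The contrasts between WT regions come from 1 limma fit of all 9 groups over 16708 genes. Of these genes, 46.6% passed an adjusted p value of 0.05 between cortex and hippocampus, 59.3% between cortex and striatum and 56.1% between hippocampus and striatum. A regional difference was thus the common case among all genes, and 8 of the 9 contrasts of the members passed.

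**Figure D1:**
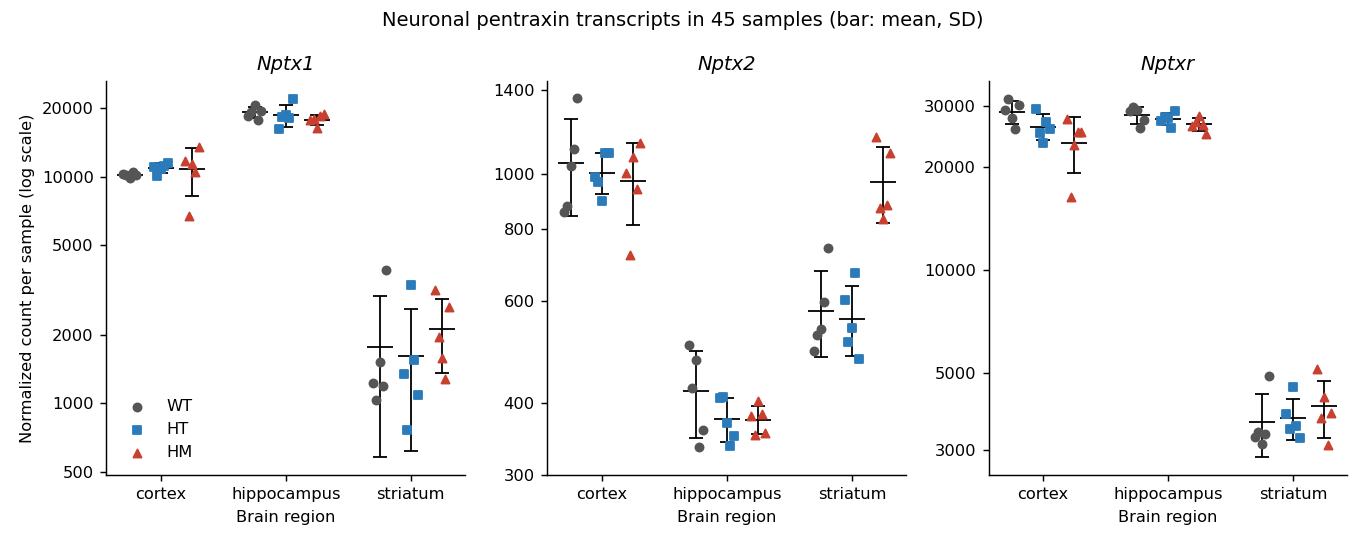
Normalized counts of *Nptx1*, *Nptx2* and *Nptxr* in the 45 samples (vertical log axis) by brain region and genotype (WT circles, HT squares, HM triangles), with the mean and SD of each group of 5 as bars. *Nptx1* and *Nptxr* are lowest in the striatum in all genotypes, and *Nptx2* in the HM striatum (836 to 1157) lies above the WT (492 to 742) and HT (477 to 673) striatum and among the cortical samples.

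*Nptx1* in WT mice was 18614, 19374, 20707, 17868 and 19510 normalized counts in the hippocampus, in the order of replicates 1 to 5. It was 10326, 10183, 9836, 10467 and 10205 in the cortex, and 1232, 1034, 1530, 1197 and 3892 in the striatum. The regions did not overlap, although replicate 5 of the striatum stood far above the next striatal sample, at 1530. The cortex was below the hippocampus by a log2 difference of -0.91 (SE 0.26, adjusted p value = 0.00302) and above the striatum by 2.71 (SE 0.26, adjusted p value = 2.72e-12). The hippocampus was 12.3-fold higher than the striatum (95% interval 8.62 to 17.7, adjusted p value = 4.27e-16).

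*Nptx2* in WT mice was 857, 880, 1031, 1102 and 1351 normalized counts in the cortex. It was 492, 525, 537, 598 and 742 in the striatum, and 505, 425, 475, 336 and 358 in the hippocampus. All cortical samples were above all others, and the hippocampus and striatum overlapped in 1 sample, hippocampal replicate 1, which was above striatal replicate 1. The cortex was 2.48-fold higher than the hippocampus (95% interval 2.09 to 2.95, adjusted p value = 5.67e-12) and 1.80-fold higher than the striatum (95% interval 1.51 to 2.14, adjusted p value = 1.30e-07). The hippocampus was below the striatum by a log2 difference of -0.46 (SE 0.12, adjusted p value = 0.00145), the opposite order to that of the other members. The WT values of cortex and striatum also entered the choice of *Nptx2*, so these contrasts are not independent of it.

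*Nptxr* in WT mice was 29250, 31542, 27688, 25705 and 30353 normalized counts in the cortex. It was 29035, 29885, 29275, 26016 and 27313 in the hippocampus, and 3256, 3380, 3118, 3321 and 4917 in the striatum. The cortical and hippocampal samples overlapped throughout, and every striatal sample was far below both. The log2 difference between cortex and hippocampus was 0.03 (SE 0.11, 95% interval -0.20 to 0.25, adjusted p value = 0.855). The cortex was 8.13-fold (95% interval 6.95 to 9.51, adjusted p value = 1.74e-24) and the hippocampus 7.97-fold (95% interval 6.82 to 9.32, adjusted p value = 2.30e-25) higher than the striatum.

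In the striatum of Shank3-HM mice, *Nptx2* stood at the level of the cortex. It was 1157, 873, 836, 884 and 1088 normalized counts in replicates 1 to 5 (mean 967 ± 145, SD, n = 5). The Shank3-HT striatum was at 604, 509, 539, 673 and 477 (560 ± 78.4), beside a mean of 579 ± 99.0 in the WT striatum. All 5 Shank3-HM samples were above all WT and all Shank3-HT samples, while the WT and Shank3-HT samples overlapped. The log2 difference between Shank3-HM and WT was 0.74 (SE 0.12, 95% interval 0.49 to 0.998), a 1.67-fold higher level. It was the 103rd highest of the 16482 differences tested in the striatum. Of these genes, 1.1% had all 5 Shank3-HM above all 5 WT samples, and 0.182% passed an adjusted p value of 0.05 in either direction. Since this contrast chose *Nptx2*, the interval is not read as a test, and these shares are given only as the setting of the value. In bulk tissue, more cells that express a gene and more RNA per cell cannot be told apart.

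The Shank3-HT difference of *Nptx2* in the striatum was -0.04 on the log2 scale (SE 0.12, 95% interval -0.30 to 0.21, adjusted p value = 0.959), and 0.00607% of genes passed in that comparison. It shares its WT samples with the Shank3-HM comparison. The mean of the Shank3-HM striatum was 1.73 times that of the Shank3-HT striatum.

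*Nptx1* and *Nptxr* overlapped between genotypes in the striatum. *Nptx1* was 3153, 1973, 1587, 1283 and 2653 normalized counts in the Shank3-HM striatum and 1344, 764, 3334, 1560 and 1093 in the Shank3-HT striatum. Its log2 difference from WT was 0.38 in Shank3-HM (SE 0.37, 95% interval -0.41 to 1.16, adjusted p value = 0.895) and -0.13 in Shank3-HT (SE 0.37, adjusted p value = 0.959). *Nptxr* was 5135, 3703, 4266, 3100 and 3823 in the Shank3-HM striatum and 3797, 3436, 4549, 3520 and 3230 in the Shank3-HT striatum. Its differences were 0.16 (SE 0.13, adjusted p value = 0.873) and 0.05 (SE 0.13, adjusted p value = 0.952). The intervals of *Nptx1* were wide, and WT replicate 5 at 3892 and Shank3-HT replicate 3 at 3334 stood far above the rest of their groups. Without WT replicate 5 the Shank3-HM differences were 0.71 for *Nptx1* and 0.27 for *Nptxr*. Without Shank3-HM replicate 1, which had the highest values of its group, they were 0.22 and 0.0612. The Shank3-HT difference of *Nptx1* turned to 0.20 without WT replicate 5 and was -0.43 without Shank3-HT replicate 3. The per-kilobase share of *Nptx2* among the members was 21.9% to 28.7% in the Shank3-HM striatum and 12.1% to 20.9% in the Shank3-HT striatum.

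**Figure D2:**
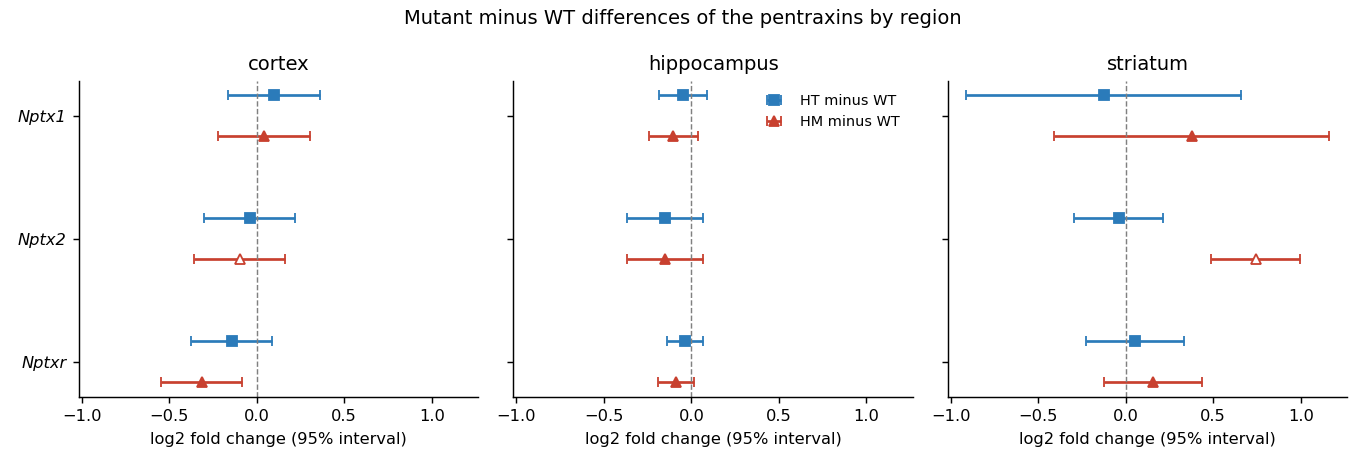
Log2 fold change of mutant minus WT (horizontal axis, with 95% interval) for the 3 members in each region, HT as squares and HM as triangles. Open symbols mark *Nptx2* in HM cortex and striatum, which are given with no test. The HM striatum value of *Nptx2* (0.74) has an interval from 0.49 to 0.998. This value chose the gene, so its interval is not read as a test. Among the tested values only the interval of *Nptxr* in HM cortex (-0.55 to -0.08) leaves out 0, and its adjusted p value in limma was 0.878.

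The samples that were high for *Nptx1* were those high for cortical markers. Over the 15 striatal samples, deviations from the genotype means correlated with the summed level of the 16 genes of the cortical and claustral projection neuron list with Pearson's r = 0.94 for *Nptx1*, 0.87 for *Nptxr* and 0.73 for *Nptx2*. These are descriptions over samples that share their dissection and library. The sum of the 9 cortical markers was 1675 to 11247 (median 3009) in WT, 555 to 8681 (median 2817) in Shank3-HT and 1063 to 8704 (median 3625) in Shank3-HM striatum. The ranges of the 3 genotypes overlapped over most of their extent.

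Placed on the axis from the mean of the WT striatum to that of the WT cortex, the Shank3-HM striatum stood 83.5% of the way for *Nptx2*, 4.19% for *Nptx1* and 1.61% for *Nptxr*. The 9 cortical markers, cut from the list of 16 after the values were seen, stood between -0.708% and 2.36% of the way. Among the other 7 genes of the list, *Rprm* stood at -3.69%, *Rorb* at -3.42%, *Sv2b* at 5.94%, *Ntng2* at 6.92% and *Lamp5* at 30.5% of the way. The last 2, *Gnb4* at 14.98% and *Nr4a2* at 64.9%, were lower in WT cortex than in WT striatum, so their way to the cortex led downwards. With the cortical marker sum as a covariate, an alternative added after the values were seen, the Shank3-HM differences were 0.74 (SE 0.10) for *Nptx2*, 0.38 (SE 0.12, adjusted p value = 0.368) for *Nptx1* and 0.16 (SE 0.08, adjusted p value = 0.723) for *Nptxr*. Without WT replicate 5 and Shank3-HT replicate 3, also added afterwards, they were 0.84, 0.71 (adjusted p value = 0.441) and 0.27 (adjusted p value = 0.512) for the same genes in the same order. Without the sample of highest cortical marker sum in each genotype, which takes out Shank3-HM replicate 1 as well and was also added afterwards, they were 0.77, 0.55 (adjusted p value = 0.507) and 0.18 (adjusted p value = 0.566). Without Shank3-HM replicate 1 alone they were 0.68, 0.22 and 0.0612.

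**Figure D3:**
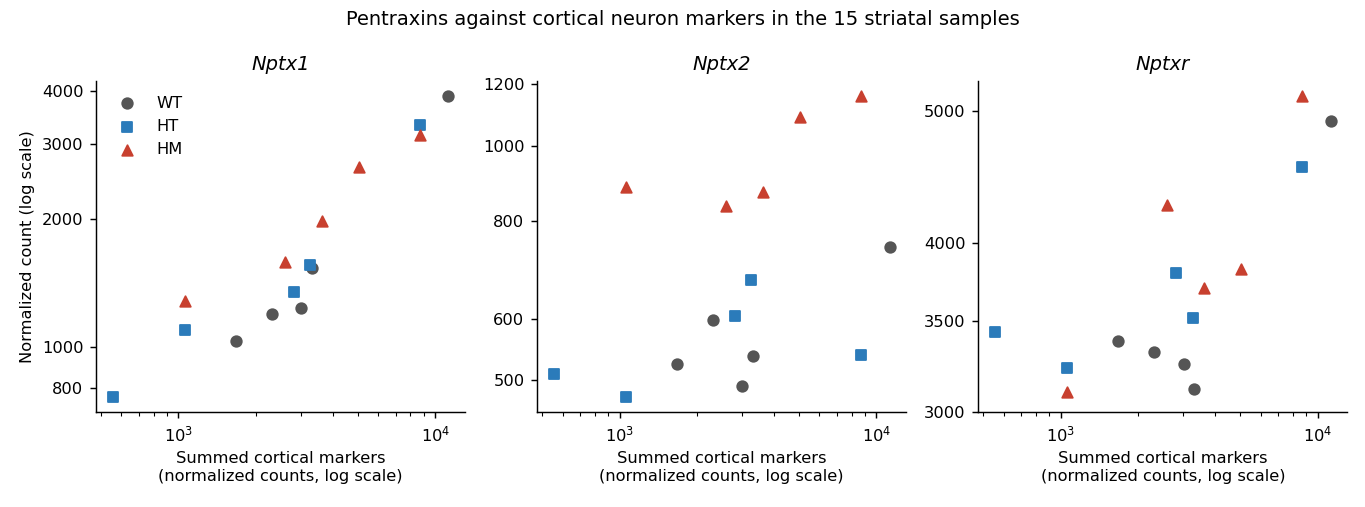
Normalized counts of each member (vertical log axis) against the summed normalized counts of 9 cortical markers (horizontal log axis) in the 15 striatal samples, by genotype. *Nptx1* climbs with the cortical markers in all genotypes, and the 5 HM samples have *Nptx2* levels of 836 to 1157 at marker sums of 1063 to 8704.

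In the cortex, *Nptx2* was 1001, 722, 1070, 942 and 1129 normalized counts in Shank3-HM mice and 988, 965, 896, 1085 and 1087 in Shank3-HT mice. The genotypes overlapped, and the lowest sample was Shank3-HM replicate 2, the one with raised striatal markers. The Shank3-HM difference was -0.10 on the log2 scale (SE 0.12, 95% interval -0.36 to 0.16) and 0.00 without that sample. The Shank3-HT difference was -0.04 (SE 0.12, adjusted p value = 0.9997).

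*Nptx1* in the cortex was 11708, 6689, 11414, 10518 and 13576 in Shank3-HM mice and 11054, 10076, 10868, 11146 and 11522 in Shank3-HT mice. In either mutant group 4 samples were above the highest WT sample, which was at 10467, and Shank3-HM replicate 2 was far below. The log2 differences were 0.04 (SE 0.12, adjusted p value = 0.970) in Shank3-HM and 0.10 (SE 0.12, adjusted p value = 0.9997) in Shank3-HT mice. The Shank3-HM difference was 0.20 without replicate 2 and 0.20 with the striatal marker sum as a covariate (SE 0.07, adjusted p value = 0.890). The exact permutation test of the single gene gave p = 0.0397 for the Shank3-HT and p = 0.825 for the Shank3-HM difference (two-sided, n = 5 per group). The unadjusted p value of the Shank3-HT difference in limma was 0.44.

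*Nptxr* in the cortex was 27570, 16339, 23153, 25292 and 25336 in Shank3-HM mice and 29462, 25043, 23470, 27058 and 25786 in Shank3-HT mice. Of the Shank3-HM samples, 4 were below the lowest WT sample, at 25705, and replicate 1 was within the WT range. The Shank3-HM difference was -0.32 on the log2 scale (SE 0.11, 95% interval -0.55 to -0.08), with an unadjusted p value of 0.0105 and an adjusted p value of 0.878 in limma. The exact permutation test gave p = 0.0159, where the smallest that 5 against 5 samples allow is 0.00794. The difference was -0.19 without Shank3-HM replicate 2 and -0.19 with the striatal marker sum as a covariate (adjusted p value = 0.946). The Shank3-HT difference was -0.14 (SE 0.11, adjusted p value = 0.9997). None of the members tested in the cortex passed, where 0.0121% of genes passed for Shank3-HM and 0% for Shank3-HT in limma. At an unadjusted p value under 0.05, 907 genes passed for Shank3-HM and 443 for Shank3-HT.

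In the per-kilobase mixture of the cortex, *Nptx1* took 22.70% to 26.48% in WT, 25.24% to 29.24% in Shank3-HT and 26.54% to 32.09% in Shank3-HM samples. *Nptxr* took 67.8% to 73.3%, 65.8% to 70.1% and 62.4% to 67.9%. For *Nptx1* the lowest Shank3-HM sample was just above the highest WT sample, and Shank3-HT overlapped both. For *Nptxr* all 3 genotypes overlapped. The shares were not tested.

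In the hippocampus all 3 members overlapped between genotypes. *Nptx2* was 380, 351, 402, 382 and 354 normalized counts in Shank3-HM and 408, 409, 369, 337 and 350 in Shank3-HT mice, within the WT range of 336 to 505. The log2 differences were -0.15 for Shank3-HM (SE 0.10, 95% interval -0.37 to 0.07, adjusted p value = 0.920) and -0.15 for Shank3-HT (SE 0.10, adjusted p value = 0.926). The mutant values of *Nptx2* thus lay inside the spread of WT mice. *Nptx1* was 16444 to 18818 (median 17913) in Shank3-HM and 16221 to 22029 (median 18281) in Shank3-HT mice, with differences of -0.10 (SE 0.07, adjusted p value = 0.920) and -0.05 (SE 0.07, adjusted p value = 0.946). *Nptxr* was 24911 to 28181 (median 26553) and 26004 to 29083 (median 27711), with differences of -0.09 (SE 0.05, adjusted p value = 0.920) and -0.04 (SE 0.05, adjusted p value = 0.942). None passed, and 0.00603% of genes passed in each of the hippocampal comparisons. The bounds of the 95% intervals leave room for a Shank3-HM *Nptxr* level between 0.876 and 1.01 times that of WT.

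Differences of the genotype effect between regions were tested in the fit of all 45 samples, in which samples of different regions entered as independent. The Shank3-HM effect of *Nptx2* was 0.84 higher in the striatum than in the cortex (95% interval 0.49 to 1.20) and 0.89 higher than in the hippocampus (95% interval 0.54 to 1.25), given with no test. The striatal and cortical differences chose the gene, so these intervals are not read as tests. The Shank3-HM effect of *Nptxr* was 0.47 higher in the striatum than in the cortex (SE 0.16, unadjusted p value = 0.00481, adjusted p value = 0.706 in limma), and 0.35 higher without Shank3-HM replicate 2 of the cortex. That of *Nptx1* was 0.34 higher (SE 0.36, adjusted p value = 0.987), 0.17 without Shank3-HM replicate 2 of the cortex and 0.67 without WT replicate 5 of the striatum. Among all genes, 0.0539% passed for the Shank3-HM effect between striatum and cortex, 0.0718% between striatum and hippocampus and 0% between hippocampus and cortex in limma. At an unadjusted p value under 0.05, 906, 897 and 743 of the 16708 genes passed in these comparisons. For the Shank3-HT effect, 0% passed in each of the 3 pairs of regions, and 560 to 935 genes had an unadjusted p under 0.05. None of the tested region differences of the members passed.

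Ordered by their means, the 9 groups of *Nptx2* ran from the WT, Shank3-HT and Shank3-HM cortex over the Shank3-HM striatum to the WT and Shank3-HT striatum and the WT, Shank3-HT and Shank3-HM hippocampus. The samples of neighbours in this order overlapped except between the Shank3-HM striatum and the WT striatum. That step is the difference that chose *Nptx2* and is given as a description. Of all genes, 1.1% had all 5 Shank3-HM above all 5 WT striatal samples. For *Nptx1* the steps with no overlap were those between regions, from the Shank3-HM hippocampus to the Shank3-HT cortex and from the WT cortex to the Shank3-HM striatum. For *Nptxr* the only such step was from the Shank3-HM cortex to the Shank3-HM striatum. The share of all genes with such steps between regions was not counted.

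Deviations of log2 values from the 9 group means correlated with r = 0.74 between *Nptx1* and *Nptxr*, 0.53 between *Nptx2* and *Nptxr* and 0.49 between *Nptx1* and *Nptx2* over 45 samples. These values differed by region (n = 15 each). Between *Nptx1* and *Nptxr* the value was 0.79 in the cortex, 0.82 in the striatum and 0.26 in the hippocampus, and between *Nptx2* and *Nptxr* it was 0.49, 0.60 and 0.63. Between *Nptx1* and *Nptx2* it was 0.66, 0.66 and -0.12. The cortical values rested on Shank3-HM replicate 2, the sample with raised striatal markers. Without it they were 0.11 between *Nptx1* and *Nptxr*, -0.0248 between *Nptx2* and *Nptxr* and 0.34 between *Nptx1* and *Nptx2*. Without WT replicate 5 the striatal values were 0.70, 0.38 and 0.48 for the same pairs. Among 16708 genes and over all 45 samples, these included, the 3 with the deviations most like those of *Nptx1* were *Tmem178* (r = 0.96), *Ncald* (r = 0.96) and *Trhde* (r = 0.95). Those most like *Nptxr* were *Lingo1* (r = 0.87), *Sh3gl2* (r = 0.85) and *Gabbr2* (r = 0.84). Those most like *Nptx2* were *Schip1*, *Mpp2* and *Enc1*, each at r = 0.71. In the Shank3-HM striatum, the log2 differences of the latter were 0.06 for *Schip1*, -0.06 for *Mpp2* and 0.05 for *Enc1*, beside 0.74 for *Nptx2*. Deviations leave out the group means, so the Shank3-HM rise of *Nptx2* does not enter these values.

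Among the partners through which pentraxins act, none passed the test in the Shank3-HM striatum. Of 12 partner genes, 0 passed in limma, where 0.182% of all genes passed. Of the 12, 6 had a positive difference, and the median log2 difference was -0.00279, beside 0.000716 over all genes. The AMPA receptor subunit genes differed by -0.04 (*Gria1*, SE 0.06), -0.09 (*Gria2*, SE 0.06), 0.03 (*Gria3*, SE 0.05) and 0.04 (*Gria4*, SE 0.06). *C1qa*, *C1qb* and *C1qc*, the chains of the complement protein C1q that pentraxins bind, differed by 0.02, 0.02 and 0.00. The lowest value was that of *Cacng3*, an AMPA receptor auxiliary subunit, at -0.27 (SE 0.08, adjusted p value = 0.339). The protease gene *Adam17*, whose product cleaves Nptxr, was at -0.03. Of the 12 genes, 0 also passed in each of the other 5 genotype comparisons, where at most 0.0121% of all genes passed. At such shares a count of 0 in so short a list says little about its genes. The list of other pentraxin genes (*Crp*, *Apcs*, *Ptx3*, *Ptx4*) had 0 genes among those tested.

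Of 32 activity-regulated genes, 1 rose in the Shank3-HM striatum, which was *Inhba*, the gene of the activin beta A subunit, where 0.182% of all genes passed in either direction. It was 737 to 946 normalized counts (median 865) in Shank3-HM and 512 to 684 (median 598) in WT mice, a log2 difference of 0.49 (SE 0.09, adjusted p value = 0.0414). This call held in 6 of 20 alternatives, with adjusted p values from 0.0407 to 0.141, and was lost without the intensity trend, with quantile normalization, with the replicate block, with only the groups compared, without 8 of the 10 samples in turn and in both fits without the samples of highest cortical marker sum. *Ptgs2*, the inducible cyclooxygenase, was at 0.62 (SE 0.17, adjusted p value = 0.272). The immediate-early genes *Fos* (0.23), *Arc* (0.17), *Egr1* (-0.14) and *Npas4* (0.12), and *Homer1* (-0.19) and *Bdnf* (0.09), did not pass, with adjusted p values of 0.604 to 0.986. The list had 22 positive differences and a median of 0.11. This count was not particular to the Shank3-HM striatum. It was 23 in Shank3-HT striatum (median 0.06), cortex (0.13) and hippocampus (0.13), 27 in Shank3-HM hippocampus (0.09) and 18 in Shank3-HM cortex (0.03).

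**Figure D4:**
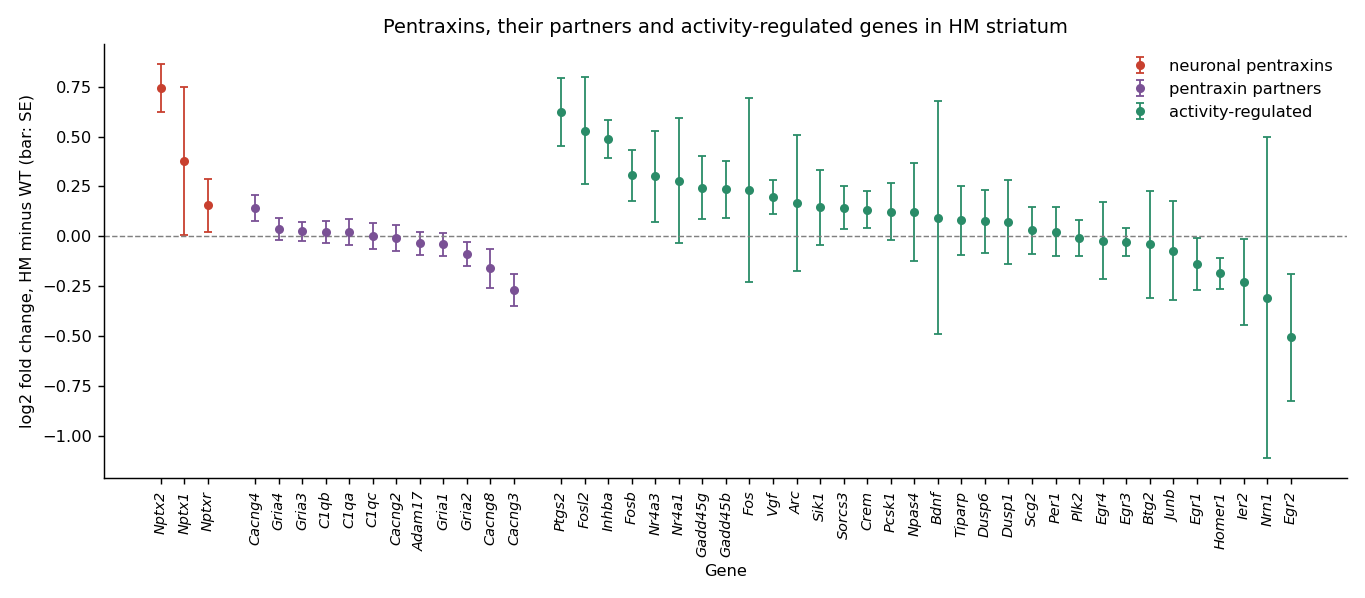
Log2 fold change of HM minus WT in the striatum (vertical axis, bars show SE) for the 3 neuronal pentraxins, 12 partner genes and 32 activity-regulated genes, ordered by value within each set. *Nptx2* (0.74) stands above every partner gene and every activity-regulated gene, the nearest of which is *Ptgs2* (0.62). *Nptx2* was chosen by its rise in this comparison, so its place above the other genes follows from the choice.

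The perineuronal net list, the matrix around parvalbumin interneurons, had 0 of 8 genes past the threshold in the Shank3-HM striatum, where 0.182% of all genes passed. Its median was 0.03. The parvalbumin interneuron list had 0 of 7 and a median of 0.12, with *Pvalb* at 0.33 (SE 0.29) and *Syt2* at 0.12 (SE 0.15). In the Shank3-HT striatum, where 0.00607% of all genes passed, the list had 0 of 7 and a median of 0.23. There *Pvalb* was at 0.99 (adjusted p value = 0.588) and *Syt2* at 0.57 (adjusted p value = 0.566), and *Nptx2* was at -0.04. The summed level of the 7 genes was 7850, 7873 and 8629 in Shank3-HT replicates 2, 3 and 5, and 5506 and 5351 in replicates 1 and 4, beside 5101 to 5671 in WT and 5376 to 6359 in Shank3-HM striatum.

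Lists of cell type markers are given for the Shank3-HM striatum beside *Nptx2*. The cortical and claustral projection neuron list had 1 of 16 genes past the threshold, beside 0.182% of all genes, and a median of -0.06. That gene was *Lamp5*, of the family of lysosomal membrane proteins, at 3843 to 4487 normalized counts in Shank3-HM and 2496 to 3153 in WT samples (log2 difference 0.53, SE 0.07, adjusted p value = 0.00178). It passed in 20 of 20 alternatives. *Slc17a7* was at -0.12 (SE 0.90) and *Tbr1* at -0.02 (SE 0.82). The summed level of the 16 genes was 12744 to 24562 in WT, 9655 to 20547 in Shank3-HT and 12949 to 23630 in Shank3-HM striatum.

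None of the other cell type lists had a gene past the threshold in limma, where 0.182% of all genes passed. The striatal spiny projection neuron list had 0 of 16 and a median of 0.01, with *Drd1* at 0.14 and *Drd2* at 0.02. The hippocampal principal neuron list had 0 of 6 tested genes and a median of 0.36, with *Prox1* at 0.14 and *C1ql2* at 0.59. The choroid plexus list had 0 of 10 and a median of 0.28, with *Ttr* at 1.39 (SE 2.05) and *Kl* at 0.04. The oligodendrocyte list had 0 of 10 and a median of 0.21, with *Mbp* at 0.17 and *Mog* at 0.29. All 10 oligodendrocyte genes, which serve myelin, had positive differences. The same count of 10 was found in Shank3-HT striatum (median 0.35), Shank3-HT cortex (0.19) and Shank3-HM cortex (0.16). The hippocampus had 5 positive differences for Shank3-HT (median -0.000852) and 1 for Shank3-HM (-0.0655). In the Shank3-HM striatum, the astrocyte list had 0 of 10 and a median of -0.03, with *Gfap* at 0.50 and *Aqp4* at -0.04. The microglia list had 0 of 10 and a median of -0.11, with *Cx3cr1* at -0.15 and *P2ry12* at -0.17. At an unadjusted p value under 0.05, 1225 genes passed in this comparison. In the other 5 genotype comparisons no gene of any list passed, where at most 0.0121% of all genes did. The part of the cortical markers, the choroid plexus genes and the striatal markers in the values above was not tested beyond the covariates and omitted samples given beside them.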

How the data were processed

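Polyadenylated RNA of 45 samples was sequenced from stranded mRNA libraries. The deposited values are normalized counts (a signal per gene, not whole reads), which the authors made by quasi-mapping with GC bias correction in Salmon 1.1.0, import with tximport and normalization in DESeq2 1.26.0 under R 3.6.2, on GRCm38, as their processing notes list. The authors' methods name other versions of R and DESeq2. Normalization set the sums per sample, so small shifts shared by most genes cannot be seen.

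The 3 members, the gene lists and the tests were chosen with earlier results of these data known. Symbols came from GENCODE identifiers, and 15 identifiers had none. Values were transformed as log2(value + 1), so that fold changes of low genes are understated, and genes with a mean of at least 10 were kept. Genotypes were compared in limma 3.58.1 (R 4.3.3) with an intensity trend, all 15 samples of a region together, and regions and region differences in 1 fit of 9 groups. Benjamini-Hochberg adjustment ran over all genes tested, with a threshold of 0.05. Adjusted p values in the text are from these limma fits or, where an alternative is named, from the limma fit of that alternative. The script was tested on simulated data. The study gives 5 mice per group.

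Named are the 3 members, *Shank3*, for each member the 3 genes with the highest correlation of deviations, and from the lists the genes past the threshold, the first 2 of each cell type list, the AMPA receptor subunits, the C1q genes and 6 activity-regulated genes. *Cacng3*, *Adam17* and *Ptgs2* were named after their values were seen. The lists were other pentraxins, pentraxin partners, perineuronal net, parvalbumin interneuron, activity-regulated, cortical and claustral projection neuron, hippocampal principal neuron, striatal spiny projection neuron, choroid plexus, oligodendrocyte, astrocyte and microglia. Columns headed KI were taken as the knock-out samples of the labels. Alternatives were quantile normalization, no trend, no filter or a minimum mean of 100, 0.1 as the pseudocount, a replicate block from the sample numbers, fits restricted to the compared groups, and omission of each sample in turn. Covariates of cortical or striatal markers and the omission of the WT and Shank3-HT striatal samples with the highest cortical marker sums, without or with that of Shank3-HM, were added after the data were seen.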

Additional observations from a re-analysis of the deposited data

Results flagged for a closer look

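In groups of 5 samples, 27 were screened for a sample far from the others, of which chance flags about 1 in 20. Both that stood out were striatal WT replicate 5: *Nptx1* was 3892 normalized counts, where the gap to the nearest sample took 0.826 of the range of the group, and *Nptxr* was 4917, where it took 0.854. The same sample had the highest cortical marker sum of the striatum, 11247, and the lowest striatal marker sum, 269438, against 289190 to 372559 in the other striatal samples. The part of cortical tissue in these values was not tested beyond the covariate given above.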

How the results depend on the processing

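No value of the members crossed the test's threshold under any alternative. The Shank3-HM striatal difference of *Nptx2* was 0.68 without Shank3-HM replicate 1 and 0.84 without WT replicate 5, the ends of its range. The sample numbers were not taken to pair samples in the main fits. Same-numbered samples correlated at -0.119 to 0.150 within a region (7 of 45 pairs above 0.1) and at -0.100 to 0.225 between regions of a genotype (16 of 45). The median of same-numbered against other-numbered samples was 0.160 against -0.0435 for WT hippocampus and striatum. Between regions it was the higher in every pair but Shank3-HT cortex and hippocampus (-0.0222 against 0.00101). Whether same-numbered samples of different regions share a mouse was not tested. With a replicate block the Shank3-HM striatal difference of *Nptx2* was 0.74, and the count of genes passing in the Shank3-HM striatum was 39 in place of 30. This count was 18 without the intensity trend and 12 to 33 leaving out each sample (12 without Shank3-HM replicate 2, 18 without WT replicate 4).

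Signs turned for values that did not pass and for some given with no test. With the cortical marker covariate, the Shank3-HT striatal difference was 0.22 for *Nptx1* and 0.0295 for *Nptx2*, and the latter was 0.0629 without the WT and Shank3-HT samples of highest cortical marker sum, with or without that of Shank3-HM. *Nptxr* between WT cortex and hippocampus was -0.0157 with quantile normalization. Leaving out each sample in turn, the range was -0.00377 to 0.0700 for that contrast, -0.11 to 0.0577 for *Nptx2* in Shank3-HT cortex, -0.0510 to 0.20 for *Nptx1* in Shank3-HM cortex and -0.11 to 0.0014 for *Nptx1* in Shank3-HT hippocampus. In Shank3-HT striatum it was -0.43 to 0.20 for *Nptx1*, -0.11 to 0.0516 for *Nptx2* and -0.0229 to 0.17 for *Nptxr*. For the Shank3-HT effect, striatum minus cortex, it was -0.53 to 0.10 for *Nptx1* and -0.0995 to 0.0917 for *Nptx2*, and striatum minus hippocampus -0.39 to 0.25 for *Nptx1*. With no test, *Nptx2* in Shank3-HM cortex ranged from -0.16 to 0.0043 and its Shank3-HM effect, hippocampus minus cortex, from -0.16 to 0.0186. The cause was not tested. Depth is unknown, and 5 samples per group limit small differences.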
